A study of Homo sapiens with 6 samples.

Results

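Glial and neural lineage markers were read in U87 cells, a human glioblastoma line, after knockdown of the zinc finger transcription factor ZNF768. The set was chosen by name: VIM, GFAP, NES, S100B, CHI3L1, OLIG2, FABP7, MAP2, TUBB3 and DCX, of which 8 of 10 had a probeset named by the platform's table, among 14884 named genes in all. FABP7, the fatty acid binding protein of radial glia, and TUBB3, the class III β-tubulin of neurons, are not named there and enter no count. A gene was read through its brightest named probeset, the one with the highest mean over the 6 arrays.

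ZNF768 knockdown cells were compared with control cells, with 3 biological replicates each and 1 Affymetrix Human Gene 2.0 ST array per replicate. The protocol given for all samples is transduction with lentivirus and selection (with puromycin or blasticidin, depending on the construct), and RNA was taken 96 h after infection. Knockdown was by short hairpin RNA in a selected pool of cells, the labels name neither the hairpin nor the content of the control virus, and a single cell line limits what the groups stand for. Values are log2 expression values from Robust Multichip Average (RMA), so a difference of 1 is a 2-fold change.

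VIM encodes vimentin, the intermediate filament of mesenchymal cells and immature glia, NES encodes nestin, the filament of neural stem cells, and GFAP encodes the filament protein that defines mature astrocytes. S100B, a calcium-binding protein, marks astrocytes. CHI3L1, a secreted chitinase-like glycoprotein also known as YKL-40, marks astrocytes and the mesenchymal state of glioblastoma. OLIG2 is a transcription factor of the oligodendrocyte lineage. MAP2, which stabilizes the microtubules of dendrites, and DCX (doublecortin), which binds microtubules in migrating young neurons, mark neurons. Glioblastoma cells commonly express markers of several of these lineages together.

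Of the 8 measured markers, 3 fell in ZNF768 knockdown cells and none rose. VIM fell to 61.1% of its control level, NES to 71.0% and MAP2 to 73.3%. GFAP, S100B, CHI3L1, OLIG2 and DCX did not pass the test, and their 95% intervals lay between -0.57 and 0.45 on the log2 scale. A gene was called when its adjusted p was under 0.05 in limma, a linear model with variances shared across probesets, with the Benjamini-Hochberg adjustment over all 53617 probesets. By this rule 16.8% of all genes fell and 16.6% rose (33.4% in either direction), so falls among the markers (37.5%) stand beside a background in which calls were frequent. The median log2 difference of the 8 markers was -0.18 and that of all genes was 0.04.

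**Figure D1:**
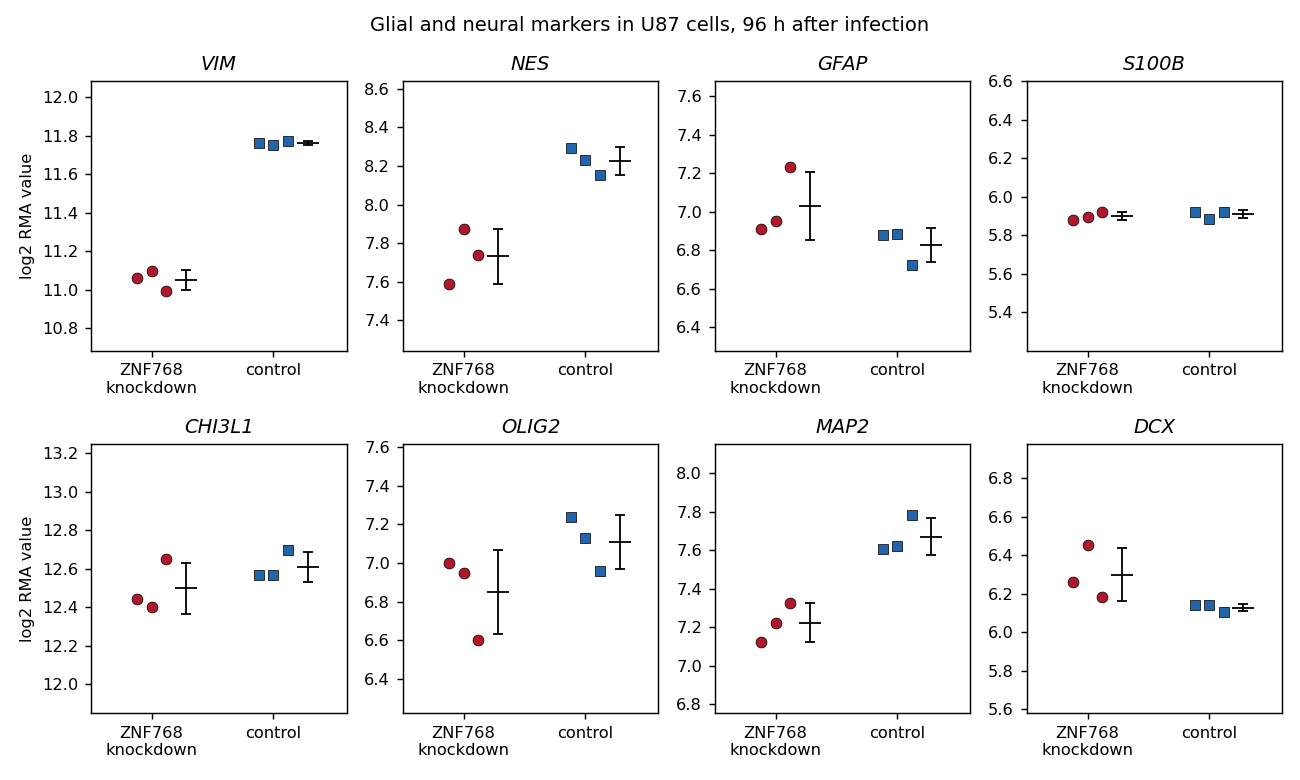
Log2 RMA values of the 8 measured markers in 3 ZNF768 knockdown replicates (red circles) and 3 control replicates (blue squares), with mean and SD in black beside each group. Every panel spans 1.4 log2 units. The groups stand apart for VIM, NES and MAP2, whereas CHI3L1, S100B and OLIG2 overlap.

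The targeted gene was lower in every ZNF768 knockdown array. ZNF768 read 7.02, 7.14 and 7.31 in ZNF768 knockdown cells, against 8.49, 8.54 and 8.54 in control cells, which is 38.8% of the control level (log2 difference -1.36, standard error 0.0851, adjusted p = 0.00015 from limma). Array medians lay between 6.40 and 6.44, and arrays correlated with r of 0.993 to 0.994 within ZNF768 knockdown, 0.992 to 0.994 within control and 0.977 to 0.980 between the groups, across probesets that are not independent. Because these are bulk samples, fewer cells that express a marker and less RNA per cell cannot be told apart.

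VIM had the largest change of the 8 markers named by the platform table. It read 11.06, 11.10 and 10.996 in ZNF768 knockdown cells, against 11.76, 11.75 and 11.77 in control cells. The groups lay well apart, with a spread of 0.05 (SD, n = 3) in ZNF768 knockdown cells and 0.01 (SD, n = 3) in control cells. VIM fell by 0.71 in log2 units (standard error 0.0551, 95% interval -0.84 to -0.58, adjusted p = 0.000322 from limma). It was lower in 3 of 3 knockdown replicates than in any control replicate.

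The platform's table names 3 probesets VIM, and all of them were lower in ZNF768 knockdown cells. Besides probeset 16702767, used above, probeset 16712272 averaged 8.56 in ZNF768 knockdown cells and 9.55 in control cells, a log2 difference of -0.99 (standard error 0.0586). Probeset 16712274 averaged 8.60 in ZNF768 knockdown cells and 9.73 in control cells, a log2 difference of -1.13 (standard error 0.0956). Both dimmer probesets also passed the test, with adjusted p = 0.000124 and adjusted p = 0.000442 from limma. VIM lies on the plus strand of chromosome 10. Of the 20 named probesets with identifiers nearest to 16702767, 20 belong to genes of that strand, whereas 18 of the 20 nearest to each of the other 2 probesets belong to genes of the minus strand. Which strand these 2 probesets read was not tested, and the brightest represents VIM by the rule above.

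**Figure D2:**
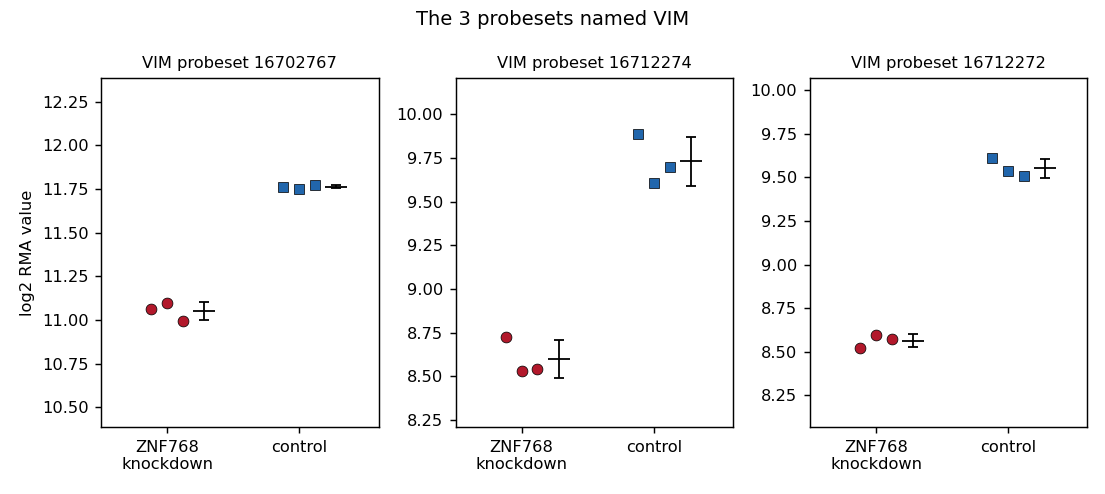
Log2 RMA values of the 3 probesets named VIM in ZNF768 knockdown (red circles) and control (blue squares) replicates, with mean and SD in black, each panel spanning 2 log2 units. All 3 show ZNF768 knockdown cells below control cells, by 0.71, 1.13 and 0.99 on the log2 scale from left to right.

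NES was also lower in ZNF768 knockdown cells. It read 7.59, 7.87 and 7.74 in ZNF768 knockdown cells, against 8.30, 8.23 and 8.15 in control cells. The highest knockdown value lay below the lowest control value, although the knockdown replicates were more scattered (SD 0.14 against 0.07 in control cells, n = 3 each). NES fell by 0.49 in log2 units (standard error 0.0884, 95% interval -0.71 to -0.28, adjusted p = 0.00899 from limma).

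VIM and NES, the filament genes that fell, are shown with the 250 bases before their start sites, next to CHI3L1, which was not called. The sequences are those of RefSeq on GRCh38.p14, 5′ to 3′ on the strand of the gene, at chr10:17227991-17228240 (plus strand, VIM), chr1:156677408-156677657 (minus strand, NES) and chr1:203186705-203186954 (minus strand, CHI3L1). Capitals mark matches on either strand to any of 5 motifs that do not overlap here. The GC box was searched as GGGCGG and the binding motif of NF-Y as CCAAT. The box of the TATA-binding protein was searched as TATAAA, the cell cycle homology region (CHR) was searched as TTTGAA, and the site of AP-1 was searched as TGACTCA.
VIM: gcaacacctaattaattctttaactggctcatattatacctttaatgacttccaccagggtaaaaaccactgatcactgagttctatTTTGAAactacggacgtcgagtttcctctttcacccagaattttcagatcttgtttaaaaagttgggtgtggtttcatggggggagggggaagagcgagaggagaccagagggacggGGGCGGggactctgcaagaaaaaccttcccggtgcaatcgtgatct
NES: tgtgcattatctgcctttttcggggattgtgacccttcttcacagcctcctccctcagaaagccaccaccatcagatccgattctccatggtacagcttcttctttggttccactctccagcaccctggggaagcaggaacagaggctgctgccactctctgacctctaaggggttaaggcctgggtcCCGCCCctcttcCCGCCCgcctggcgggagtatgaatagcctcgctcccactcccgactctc
CHI3L1: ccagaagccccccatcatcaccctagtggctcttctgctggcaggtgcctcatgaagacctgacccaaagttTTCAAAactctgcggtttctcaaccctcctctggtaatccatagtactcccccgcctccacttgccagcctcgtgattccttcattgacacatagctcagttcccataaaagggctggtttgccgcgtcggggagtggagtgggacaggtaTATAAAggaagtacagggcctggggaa
VIM has 1 GC box match and NES has 2, and CHI3L1 has none, while 42.3% of 27305 promoter windows of the same length hold at least 1. CHI3L1 holds a TATA box match, as do 11.1% of windows, and VIM and CHI3L1 each hold a CHR match, as do 13.6%. MAP2, which also fell, and DCX, which was not called, have 3 windows each, and none of these holds a GC box match. Whether the match goes with the call was not tested. Neither CCAAT (33.0% of windows) nor the AP-1 site (4.16%) occurs in the windows shown for VIM, NES and CHI3L1. MAP2 and DCX each have 1 CCAAT match, and DCX also has 1 TATA box match, in windows not shown. Matches are letters in a window and were not measured as sites, and 5 of the 8 markers had an entry of this kind.

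GFAP, the other glial filament of the set, did not pass the test. It read 6.91, 6.95 and 7.23 in ZNF768 knockdown cells, against 6.88, 6.88 and 6.72 in control cells. Replicate 3 was the highest knockdown array and the lowest control array, and the groups lay close without overlap. The log2 difference was 0.20 (standard error 0.104, 95% interval -0.05 to 0.45, adjusted p = 0.23 from limma). This interval of the signal includes a rise but no fall of the size seen for VIM or NES. GFAP lay between percentiles 56.6 and 65.3 of all probesets, where a low level of RNA and background cannot be told apart. A fall in GFAP RNA could therefore go unseen. Groups without overlap were frequent in these arrays, at 51.5% of all genes, with ZNF768 knockdown lower in 23.5% and higher in 28% of them all. They were found for 5 of the 8 markers, lower for VIM, NES and MAP2 and higher for GFAP and DCX.

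The filament genes were also set against each other within arrays, as the difference of their log2 values. The change in ZNF768 knockdown against control arrays was -0.92 (standard error 0.141) for VIM minus GFAP and -0.70 (standard error 0.124) for NES minus GFAP, without overlap. The limit given for the level of GFAP holds for these differences too. For VIM minus NES it was -0.22 (standard error 0.0895), and here the groups overlapped. In 4 such comparisons, which included MAP2 minus DCX, the two-sided exact permutation p was 0.1 for each pair but VIM minus NES (p = 0.2). With 3 arrays per group 0.1 is the smallest p that this test can give (0.133 after Benjamini-Hochberg adjustment), so it could not have passed 0.05 and decides nothing here.

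Other intermediate filament genes gave 2 more values. DES, the filament of muscle, had a log2 difference of 0.32 (standard error 0.0748, adjusted p = 0.0248 from limma) by its brighter probeset and of -0.06 (adjusted p = 0.726 from limma) by the other. Its call was lost without ZNF768 knockdown replicate 2 or 3, without control replicate 1 or 3, and with the mean of both probesets. Over the replicates left out, its value ran from 0.29 to 0.38. PRPH, a filament of peripheral neurons, had a log2 difference of -0.03 (adjusted p = 0.82 from limma). Of 5 measured filament genes, 2 fell and 1 rose (60% called, against 33.4% of all genes), with a median log2 difference of -0.03.

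S100B was nearly equal in the groups. It read 5.88, 5.90 and 5.92 in ZNF768 knockdown cells, against 5.92, 5.89 and 5.92 in control cells. The values overlapped, and the log2 difference was -0.01 with an interval from -0.14 to 0.11 (adjusted p = 0.905 from limma). Of the 20 measured genes of the S100 family, 2 rose and none fell (10% called, against 33.4% of all genes). S100A13, a family member linked to protein export, rose by 0.46 in log2 units (standard error 0.0752), and S100Z by 0.35 (standard error 0.0731). The S100Z call was lost without ZNF768 knockdown replicate 1 or 3 and without control replicate 1 or 2, with values from 0.31 to 0.41.

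CHI3L1 was bright on all arrays and was not called. It read 12.44, 12.40 and 12.65 in ZNF768 knockdown cells, against 12.57, 12.57 and 12.70 in control cells. The groups overlapped, and the log2 difference was -0.11 (standard error 0.0859, 95% interval -0.32 to 0.10, adjusted p = 0.42 from limma). The other chitinase family genes measured, CHI3L2, CHIT1 and CHID1, had log2 differences of -0.20, -0.10 and 0.08 and did not pass the test.

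The list of genes of the mesenchymal state of glioblastoma, to which CHI3L1 belongs, held changes in both directions. Of 18 measured genes 7 fell and 3 rose, which is 55.6% against 33.4% of all genes, with a median log2 difference of -0.08. These genes are bright, with a list mean of 10.61 to 10.84 over the arrays. A refit with probesets below the median level left out called 53.4% of the remaining 10590 genes. That refit has its own variances and adjustment, so its share cannot be set directly against the 55.6% of this list. FN1, which encodes the matrix glycoprotein fibronectin, fell by 2.06 in log2 units (standard error 0.0596). The receptor tyrosine kinase gene MET fell by 1.01, the hyaluronan receptor gene CD44 fell by 0.70, and FOSL2, which encodes an AP-1 transcription factor, fell by 0.44. Rises were those of the NF-kB subunit gene RELB (log2 difference 0.78), the annexin gene ANXA2 (log2 difference 0.78) and the collagen cross-linking enzyme gene LOX (log2 difference 0.47). TNC (tenascin-C), a matrix protein of glioma and radial glia, had a log2 difference of -0.01 (adjusted p = 0.9 from limma).

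OLIG2 was variable within both groups. It read 7.002, 6.95 and 6.60 in ZNF768 knockdown cells, against 7.24, 7.13 and 6.96 in control cells. Replicate 3 was the lowest in each group and the groups overlapped. The log2 difference was -0.26 (standard error 0.129, 95% interval -0.57 to 0.05, adjusted p = 0.221 from limma), the widest interval among the markers. Of 17 measured genes of the oligodendrocyte lineage, 1 fell and 2 rose, with a median log2 difference of 0.05. That is 17.6% called, against 33.4% of all genes. CSPG4, the NG2 proteoglycan of oligodendrocyte precursors and pericytes, fell by 0.50 in log2 units (standard error 0.0720). UGT8, the enzyme that makes the galactolipids of myelin, rose by 0.45 (standard error 0.0677), and BCAS1 by 0.25 (standard error 0.0601). The BCAS1 call was lost without ZNF768 knockdown replicate 1 or 2 and without control replicate 2 or 3, with values from 0.22 to 0.28. OLIG1 and SOX10, transcription factors of the same lineage, had log2 differences of 0.09 and 0.04 and did not pass the test.

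Astrocyte and stem cell genes beyond the markers moved in both directions. Of 13 measured astrocyte genes 2 fell and 1 rose (23.1% called, against 33.4% of all genes), with a median log2 difference of -0.01. GLUL, which encodes glutamine synthetase, fell by 0.79 in log2 units (standard error 0.0884), the gliogenic transcription factor gene SOX9 fell by 0.35 (standard error 0.0543), and NFIB, another transcription factor gene of gliogenesis, rose by 0.58 (standard error 0.0789). AQP4, the water channel of astrocyte endfeet, had a log2 difference of 0.03. Of 19 measured genes of neural stem cells and radial glia, 3 fell and 1 rose (21.1% called), with a median log2 difference of 0.05. Next to VIM and NES, LIFR, the receptor of leukemia inhibitory factor, fell by 0.83 (standard error 0.0922). MSI2, an RNA-binding protein of stem cells, rose by 0.66 (standard error 0.0615). SOX2, the stem cell transcription factor, had a log2 difference of -0.08 (adjusted p = 0.364 from limma).

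MAP2 was the neuronal marker that fell. It read 7.12, 7.22 and 7.33 in ZNF768 knockdown cells, against 7.61, 7.62 and 7.78 in control cells. The groups did not overlap and had similar spread (SD 0.10 each, n = 3). MAP2 fell by 0.45 in log2 units (standard error 0.0814, 95% interval -0.64 to -0.25, adjusted p = 0.00956 from limma).

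DCX was not called. It read 6.26, 6.45 and 6.18 in ZNF768 knockdown cells, against 6.14, 6.14 and 6.11 in control cells. All 3 knockdown values lay above the control values, and the log2 difference was 0.17 (standard error 0.0806, 95% interval -0.02 to 0.36, adjusted p = 0.2 from limma). Within arrays, the change in MAP2 minus DCX was -0.62 (standard error 0.130) in ZNF768 knockdown against control arrays, without overlap.

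**Figure D3:**
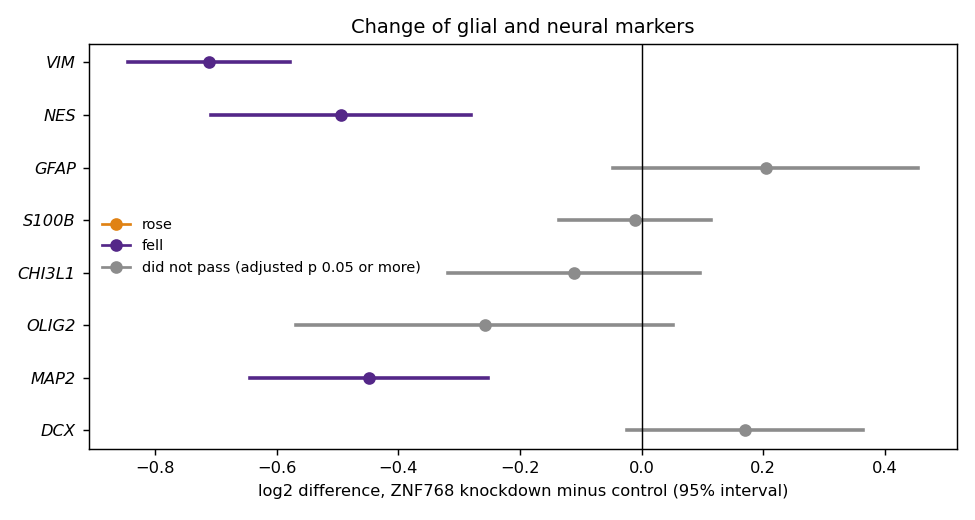
Log2 difference between ZNF768 knockdown and control cells for the 8 measured markers, with 95% intervals from limma. Purple marks genes that fell and grey those that did not pass. VIM (-0.71), NES (-0.49) and MAP2 (-0.45) lie to the left of 0 with their whole intervals.

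MAP2 and DCX belong to families that bind microtubules or tubulin, and these genes moved in both directions. Of 21 measured genes of the MAP, doublecortin and stathmin families, 4 fell and 4 rose (38.1% against 33.4% of all genes), with a median log2 difference of 0.16. The rises depended on the processing and ran from 1 at an adjusted p under 0.01 to 9 with arrays centred on housekeeping genes, while the falls numbered 4 or 5 in every alternative. STMN1 (stathmin), which sequesters tubulin and is high in dividing cells, fell by 1.995 in log2 units (standard error 0.0661). MAP1A and MAP1B, which stabilize neuronal microtubules, fell by 0.70 and 0.69. DCLK1, the doublecortin-like kinase and a paralog of DCX, rose by 0.93 (standard error 0.103). Smaller rises were those of MAP6D1 (log2 difference 0.40), MAP1S (log2 difference 0.33) and MAP7D1 (log2 difference 0.24). The MAP1S call was lost in every omission of a replicate except that of control replicate 2, with values from 0.26 to 0.39, and under cyclic loess. The MAP7D1 call was lost without ZNF768 knockdown replicate 1 or 2 and without control replicate 2 or 3 (0.23 to 0.26), and the MAP6D1 call without control replicate 2 (0.34 to 0.45 over the omissions).

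**Figure D4:**
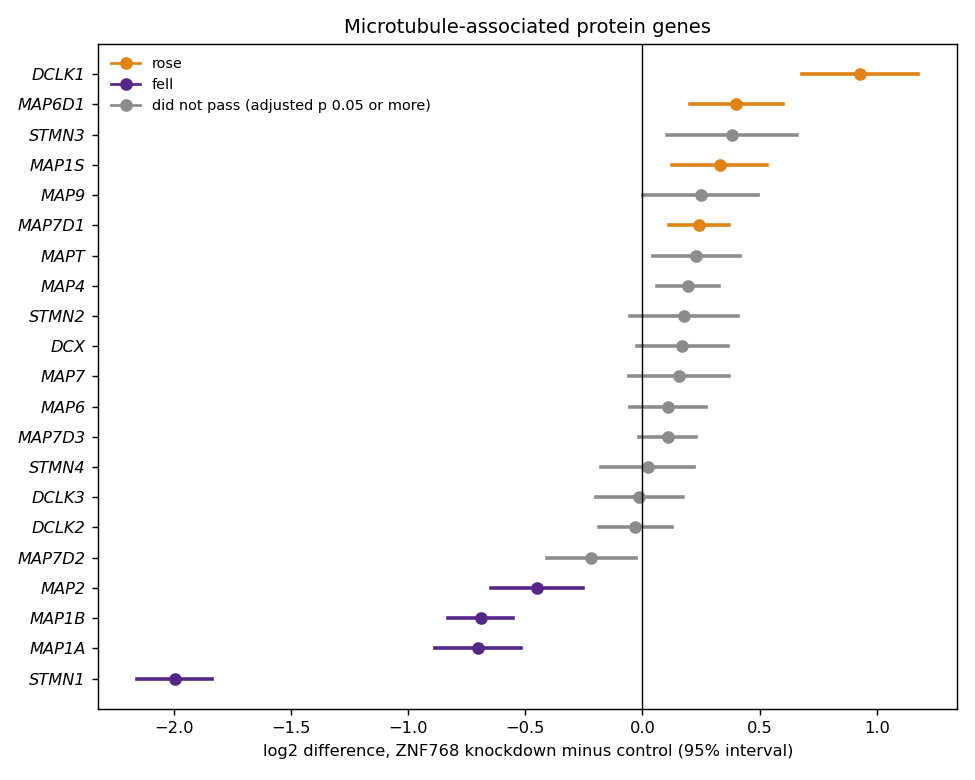
Log2 difference between ZNF768 knockdown and control cells for 21 genes of the MAP, doublecortin and stathmin families, with 95% intervals from limma (orange rose, purple fell, grey did not pass). STMN1 lies lowest at -1.995 and DCLK1 highest at 0.93, with MAP2 among the 4 genes that fell.

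Among 20 measured neuronal genes 5 fell and 2 rose (35% called, against 33.4% of all genes), with a median log2 difference of 0.12. The falls numbered 5 in every alternative, but the rises ran from 0 at an adjusted p under 0.01 to 7 with arrays centred on housekeeping genes, where they outnumbered the falls. Besides MAP2, the falls were those of GAP43, a protein of growing axons (log2 difference -0.85, standard error 0.123), UCHL1, a neuronal ubiquitin hydrolase (log2 difference -0.79), SYT1, the calcium sensor of synaptic vesicles (log2 difference -0.53) and NCAM1, a neural cell adhesion molecule (log2 difference -0.50). The adhesion molecule gene NRCAM had a log2 difference of 0.44 (standard error 0.0938) and SYN1, a protein of synaptic vesicles, 0.27 (standard error 0.0574). NRCAM lost its call without control replicate 1 (values from 0.35 to 0.48 over the omissions). It lay between percentiles 36.2 and 42.0 of all probesets in ZNF768 knockdown arrays and between 27.9 and 31.6 in control arrays. At such levels a low level of RNA and background cannot be told apart. SYN1 lost its call without ZNF768 knockdown replicate 1 or control replicate 2 (0.24 to 0.30). All control values of SYN1 were exactly equal, at 7.35, so it could not be tested with such probesets left out.

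**Figure D5:**
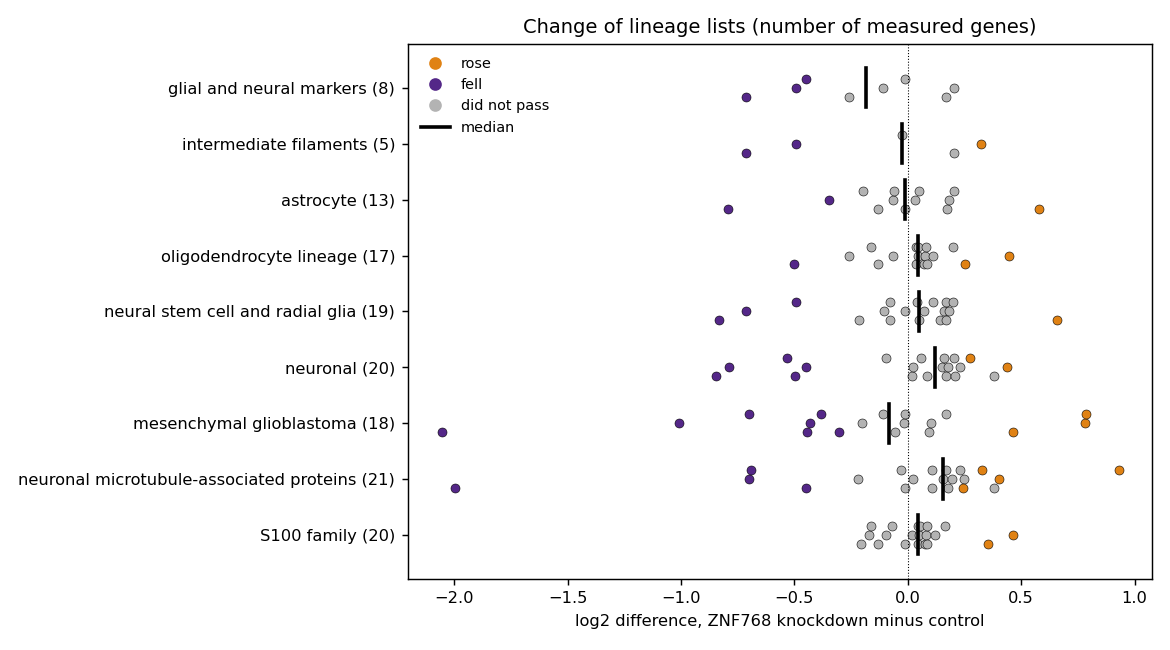
Log2 difference between ZNF768 knockdown and control cells for each measured gene of the 8 marker genes and of 8 related lists (orange rose, purple fell, grey did not pass), with the list's median as a black bar. The median of the 8 markers is -0.18, and the lowest points are FN1 in the mesenchymal list and STMN1 in the microtubule list.

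Markers of other cell types were read on the same arrays. Of 9 measured myeloid genes 3 fell and none rose, with a median log2 difference of 0.04. Their mean level ran from 6.82 to 6.96 in ZNF768 knockdown cells and from 7.24 to 7.28 in control cells. CD68, a lysosomal protein of macrophages that is also found in other cells, fell by 3.11 on the log2 scale. The lower mean level rests largely on this gene. CSF1R (log2 difference -0.50) and LAPTM5 (log2 difference -0.34) also passed the test, whereas CD163, TYROBP, SPI1, CX3CR1, CD14 and TREM2 had log2 differences from -0.01 to 0.29 without a call. CSF1R lost its call without ZNF768 knockdown replicate 3 or any control replicate (-0.60 to -0.35), and LAPTM5 without ZNF768 knockdown replicate 1 or 2 or control replicate 2 or 3 (-0.40 to -0.29). Of 10 endothelial genes 2 fell (KDR, and ERG, whose call was lost whichever replicate was left out, at -0.24 to -0.19), of 9 fibroblast and pericyte genes 3 fell and 1 rose, and of 9 epithelial genes none was called. KDR, a receptor of vascular endothelial growth factor, fell by 0.87, LUM, a matrix proteoglycan, fell by 1.23, and TAGLN, an actin-binding protein of smooth muscle, rose by 0.88. Mean levels were 6.96 to 7.05 in ZNF768 knockdown and 7.09 to 7.13 in control cells for the endothelial list. The median log2 difference of that list was 0.05. For the fibroblast and pericyte list mean levels were 7.06 to 7.12 in ZNF768 knockdown and 7.21 to 7.36 in control cells. The median log2 difference there was -0.07, and the falls besides LUM were those of DCN (log2 difference -1.07) and MCAM (log2 difference -0.58). For the epithelial list mean levels were 6.83 to 6.89 in ZNF768 knockdown and 6.77 to 6.85 in control cells, with a median log2 difference of 0.07. Of 14 housekeeping genes 3 fell and 1 rose, with a median log2 difference of -0.08. The shares called were 33.3% (myeloid), 20% (endothelial), 44.4% (fibroblast and pericyte) and 28.6% (housekeeping), against 33.4% of all genes. The part of these genes in the results for the markers was not tested.

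The label of glioblastoma was read against its markers with the limit that no background level is known for a probeset and probesets differ in brightness for the same amount of RNA. In ZNF768 knockdown and control arrays, VIM lay between percentiles 96.2 and 98.0 of all probesets and CHI3L1 between 99.0 and 99.3. GFAP, S100B, OLIG2 and DCX lay between percentiles 38.0 and 65.8, where a low level of RNA and background cannot be told apart. MAP2 lay between percentiles 63.6 and 66.8 in ZNF768 knockdown arrays and between 70.8 and 72.5 in control arrays. ZNF768 lay between 61.7 and 66.5 in ZNF768 knockdown arrays and at 80.4 in control arrays. NES lay between percentiles 70.6 and 74.3 in ZNF768 knockdown arrays and between 76.5 and 78.6 in control arrays. The 71.0% of the control level given for NES, the 73.3% given for MAP2 and the 38.8% given for ZNF768 carry the same limit. SOX2 averaged 6.003 in ZNF768 knockdown cells and 6.08 in control cells, and SOX10 averaged 7.35 in ZNF768 knockdown cells and 7.30 in control cells. The astrocyte enzyme ALDH1L1, the neuronal nuclear protein RBFOX3 and the leukocyte phosphatase PTPRC are not named in the platform table.

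The genes with the profile most like that of a called marker were picked by Pearson's r of log2 values over the 6 arrays, among 5053 genes with an SD of at least 0.2. For VIM these were PAQR5, NEIL3 and TMEM156 (r = 0.9996 each), for NES MRPL22, NR2C2AP and YY1AP1 (r from 0.993 to 0.994), and for MAP2 PHC3, EDNRB and DMBT1 (r from 0.995 to 0.996). Each of these genes also fell. With 2 groups of 3 arrays such a correlation holds the difference between groups, and 521 genes had r over 0.99 with VIM, against 4 with NES and 9 with MAP2.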

How the data were processed

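Total RNA of 3 ZNF768 knockdown and 3 control cultures of U87 cells was measured on 1-colour Affymetrix Human Gene 2.0 ST arrays. The deposited log2 values were made by the authors with Robust Multichip Average in the oligo package (background correction, normalization between arrays, summary of probes). Versions and filters are not given in the sources used here. Scanner files were not analysed, so background, slide and scan date are unknown, and the number of arrays limits the precision.

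Names came from the platform table, with current symbols looked up by Entrez identifier, for 16098 of 53617 probesets (none had several symbols). They gave 14884 genes, and for the 779 with more than 1 probeset the brightest on average represented the gene. The test was limma 3.58.1 in R 4.3.3 (lmFit and eBayes, no covariate, all probesets) at a Benjamini-Hochberg adjusted p under 0.05. The same fit was tested on simulated data. Permutation tests used scipy 1.17.1. In 547 probesets of ZNF768 knockdown arrays and 570 of control arrays all 3 values were exactly equal.

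The markers and gene lists were chosen with earlier results of these data known. Named genes are the markers, ZNF768, up to 4 rises and 4 falls past the test per list, a few defining genes of each lineage, paralogs of the markers, and the 3 genes most like each called marker. No gene of a list of 17 tubulins was named. A planned comparison with olfactory receptor genes was not made, since only 1 was named. Other values named in the text were chosen after they were seen. Alternatives were cyclic loess, centring on 14 housekeeping genes, removing the dimmer probesets (below the median), named probesets only, the mean of a gene's probesets, trend and robust eBayes, array weights, a replicate block, each replicate left out, an adjusted p of 0.01 and unlogged means. Leaving out probesets with equal values was added after the data were seen. The replicates are labelled biological and the methods call them independent, with the groups of an experiment started from a shared plate. Whether a replicate number marks such an experiment is not stated, and p-values rest on the spread between these arrays.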

Additional observations from a re-analysis of the deposited data

How the results depend on the processing

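The falls of VIM, NES and MAP2 kept their direction and their call in all 16 alternatives with a test, and so did that of ZNF768 in all 15 of its own. GFAP, S100B, CHI3L1, OLIG2 and DCX were not called in any alternative run. Over all alternatives, the log2 difference of VIM ran from -0.94 (mean of its 3 probesets) to -0.61, that of NES from -0.56 to -0.40 and that of MAP2 from -0.50 to -0.35, with the highest adjusted p at 0.00617, 0.0372 and 0.0363 from limma. With a replicate left out they ran from -0.73 to -0.68, from -0.56 to -0.42 and from -0.50 to -0.39. S100B changed sign, to 0.0854, when arrays were centred on housekeeping genes, and was called neither way (adjusted p = 0.288 from limma). That centring moved the median of all genes to 0.14, against 0.04 as deposited, and gave 3822 rises and 2034 falls (65.3% rises, against 49.6% of the 2466 rises and 2501 falls as deposited). At an adjusted p under 0.01 the counts were 1506 and 1796. Deviations from the group means correlated at -0.07, -0.02 and 0.02 between arrays with the same replicate number. With 3 arrays per group these values cannot show whether such arrays come from a shared plate. With the replicate block 3 markers fell and 0 rose, as without it, with log2 differences of -0.71 for VIM, -0.49 for NES and -0.45 for MAP2. Over all genes it gave 1865 rises and 2029 falls, and among list genes named above it ended the calls of BCAS1, SYN1, MAP6D1, MAP7D1, S100Z, CSF1R, LAPTM5 and ERG. Of 512 list counts under alternatives, 82 moved by over 1.5 times. Low probesets limit what can be seen for S100B and DCX, which were left out when probesets below the median were removed and could not be tested there.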

Other observations

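TUBB3 is not named by the platform's table, but an entry in the study's supplementary table of probesets gives that name to probeset 16829420. This table was at hand only for its 1997 entries with the largest rises, so names of genes that fell could not come from it, and the value was chosen after it was seen. The deposited values of that probeset were 9.89, 9.96 and 10.04 in ZNF768 knockdown cells, against 9.12, 9.15 and 9.20 in control cells. The log2 difference was 0.80 (standard error 0.0636), or 1.74 times the control level. Since the probeset could be named only because it was among these rises, its direction is a description with no test. Of the fatty acid binding protein family, to which FABP7 belongs, 4 of 14 listed genes were measured. CRABP2, a carrier of retinoic acid, averaged 7.75 in ZNF768 knockdown cells and 8.47 in control cells and fell by 0.72 (standard error 0.0853, adjusted p = 0.00165 from limma), with the call kept in all 16 alternatives. FABP5, PMP2 and FABP12 had log2 differences of -0.17, 0.04 and 0.17 and did not pass the test.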
